A study of Mus musculus with 6 samples.

Results

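The genes described here encode the enzymes that build, recycle and balance nucleotides. The list names 38 purine, pyrimidine and deoxynucleotide (dNTP) enzymes, chosen by gene symbol. Of these, 37 had a probe set carrying their symbol alone, out of 19937 genes on the array table. Impdh2, an enzyme of guanine nucleotide synthesis, had none and was not analysed here.

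Cells make nucleotides along separate routes. The de novo routes assemble the purine ring on phosphoribosyl pyrophosphate (PRPP) and the pyrimidine ring from carbamoyl phosphate and aspartate, while salvage enzymes recover free bases and nucleosides. Ribonucleotide reductase turns ribonucleotides into deoxynucleotides, and small kinases and phosphatases set the final dNTP pool. Proliferating leukaemic T cells depend on these routes for DNA and RNA synthesis, and several of the enzymes are drug targets in leukaemia.

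The samples were polysome-bound RNA of #483, a clone of T-cell acute lymphoblastic leukaemia (T-ALL) from C57BL6 mice. For 2 h, 3 samples received 4EGI-1 at 100 µM, and 3 were untreated, each hybridised to 1 array. 4EGI-1 is a small molecule that keeps eIF4E, which binds the mRNA cap, from joining the scaffold eIF4G. The untreated samples carry that title while the protocol names the solvent DMSO, so whether they received solvent is not settled. All samples come from the same clone, so its response may differ from that of other leukaemias. Only polysomal RNA was measured, so a change in ribosome loading and a change in the amount of the mRNA cannot be told apart, nor can fewer cells and less RNA per cell.

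Arrays had median log2 signals of 6.38 to 6.43, and arrays of the same group correlated at 0.996 to 0.997 across genes, against 0.988 to 0.990 between groups. The labelled cell type was checked against T-cell markers. All 10 measured T-cell markers lay above the median of the table, and their mean log2 signal per array was 10.89 to 10.93 with 4EGI-1 and 11.00 to 11.05 without it. Of these 10 markers, 2 were higher with 4EGI-1 (Rag1 and Notch1), 4 were lower (Cd3d, Cd3e, Zap70 and Ptcra) and 4 did not pass. The signal receptor gene Cd3e averaged 11.78 with 4EGI-1 and 12.18 in untreated cells, and the recombinase gene Rag1 12.29 with 4EGI-1 and 11.88 in untreated cells. Means of the B-cell, myeloid, erythroid and stromal marker lists stayed between 5.49 and 6.84 with 4EGI-1 and between 5.64 and 6.92 without it. Above the median of the table lay 1 of 6 B-cell, 2 of 8 myeloid, 4 of 5 erythroid and 5 of 7 stromal markers. Lying above that median therefore does not single out T cells. In the myeloid list 2 of 8 genes, Adgre1 and Cd68, were higher with 4EGI-1. The list mean was 5.95 to 5.96 with 4EGI-1 and 5.82 to 5.94 in untreated cells, and its part in the results below was not tested.

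After 4EGI-1, some members rose and others fell. The roles were not tested against each other. Genes of the ring-building de novo routes either rose or did not pass the test. Among them were Cad, which catalyses the opening steps of pyrimidine synthesis, and Pfas, Gart and Atic of purine synthesis. Salvage enzymes and nucleotide kinases either fell or did not pass. Ribonucleotide reductase rose in 2 of its 3 genes, Rrm1 and Rrm2b. In all, 7 of 37 members rose, 11 fell and 19 did not pass at an adjusted p under 0.05, a threshold that 22.9% of all genes passed, with differences from -0.61 to 1.10 on the log2 scale.

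As shares of the 37, 18.9% rose and 29.7% fell. Over all genes tested, 11.5% rose and 11.5% fell. Of the members, 35 had a mean signal no lower than the table's median. All such bright genes were also fitted on their own, and in that separate fit 21.2% rose and 25.4% fell. Their shares in the fit over all genes were not counted. In the separate fit 7 of the 35 members rose, a share near its background, and 14 fell. Counts by role and list below are from the fit over all genes, so these bright shares are not strictly alike. The median log2 difference of the members was -0.06, beside -0.03 over all genes. The members that passed moved by a median of 0.39 on the log2 scale, and all genes that passed by 0.40. Only 4 members, Cad, Rrm1, Pfas and Dctpp1, passed with a change of 1.5-fold or more. Values of the groups did not overlap for 9 members that were higher with 4EGI-1 and 17 that were lower, where 17.0% and 20.8% of all genes showed such a separation.

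**Figure D1:**
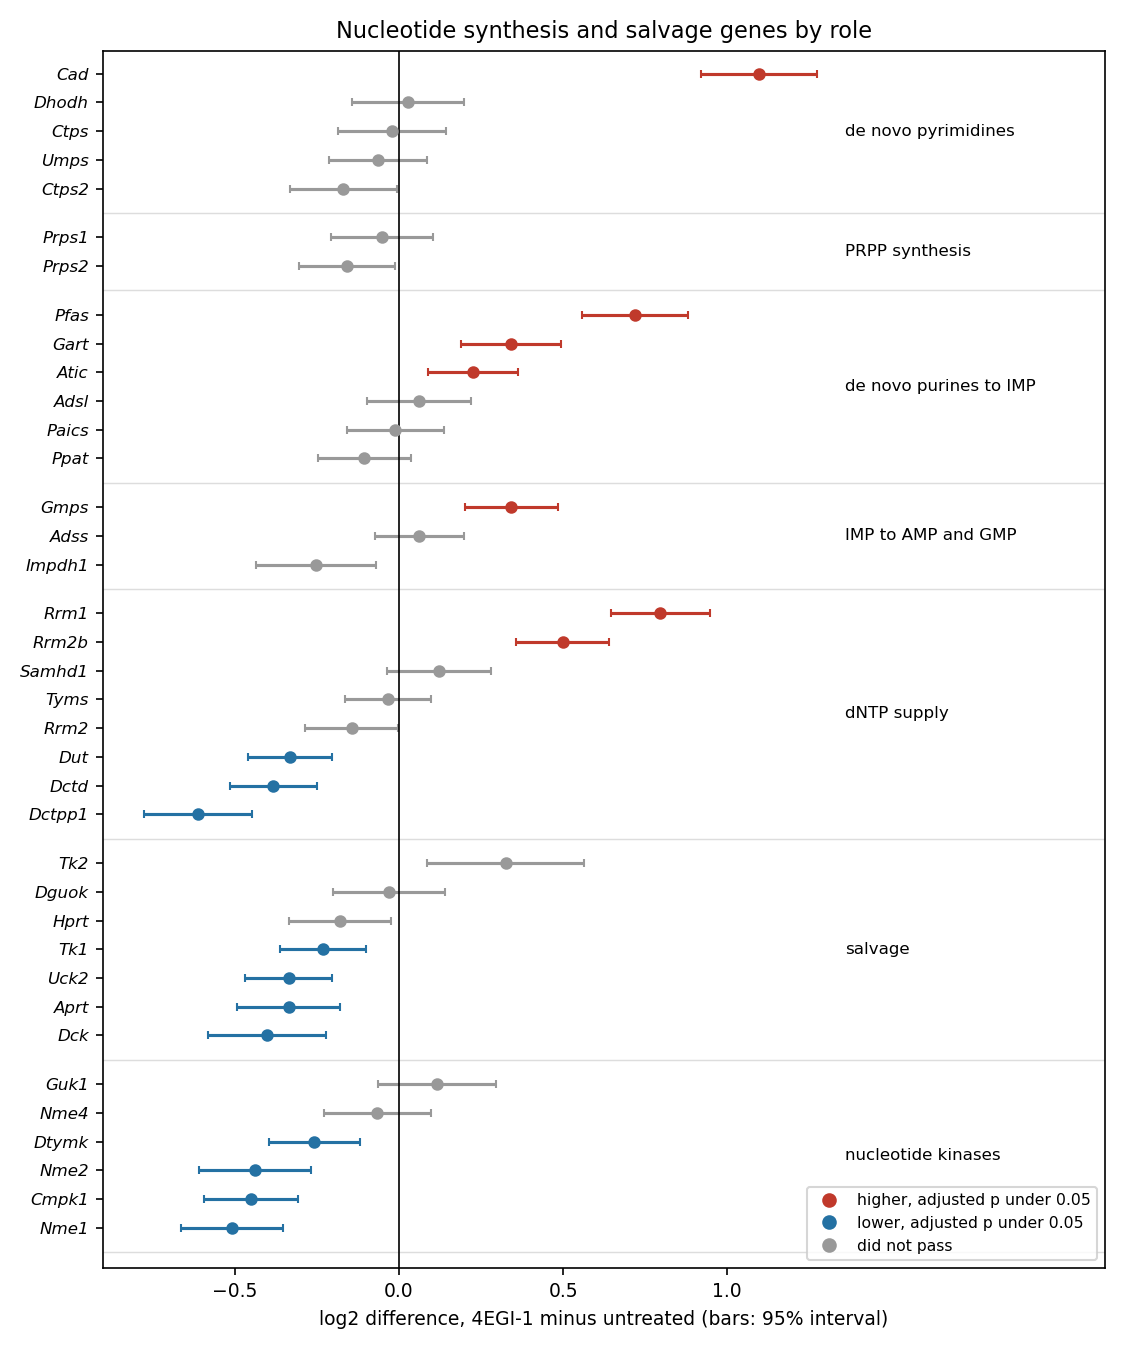
Log2 difference, 4EGI-1 minus untreated, of the 37 measured members (points) with 95% intervals (bars; n = 3 arrays a group), grouped by role. Red points rose and blue points fell at an adjusted p under 0.05, and grey points did not pass. Cad is farthest to the right at 1.10 and Dctpp1 farthest to the left at -0.61, and the nucleotide kinases hold no red point.

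In the pyrimidine route, 1 of 5 genes rose, Cad, and 4 did not pass, where 11.5% of all genes rose. In the separate fit of bright genes 21.2% rose. Cad encodes a trifunctional protein that joins carbamoyl phosphate synthetase, aspartate transcarbamylase and dihydroorotase in 1 chain. Its log2 signal was 8.93, 8.71 and 8.93 in the 4EGI-1 samples, against 7.71, 7.78 and 7.79 in the untreated samples. Every treated sample therefore lay well above every untreated sample. The difference was 1.10 ± 0.08 (SE; adjusted p = 8.26e-05), or 2.14 times the untreated level, the largest change among the members.

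The later enzymes of the route did not pass. Dhodh, the enzyme of the inner mitochondrial membrane that oxidises dihydroorotate, differed by 0.03 (95% interval -0.14 to 0.20). Umps, the bifunctional enzyme that makes UMP, differed by -0.06 (-0.21 to 0.09). The intervals of both exclude a rise like that of Cad. CTP synthase, which aminates UTP, has a pair of genes. Ctps differed by -0.02 (-0.19 to 0.14) and Ctps2 by -0.17 (-0.33 to -0.01; adjusted p = 0.133), with all Ctps2 values lower in the treated samples.

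PRPP is the activated ribose that feeds both purine synthesis and base salvage. Neither PRPP synthetase gene passed. Prps1 differed by -0.05 ± 0.07 (SE). Prps2 had log2 signals of 12.18, 12.14 and 12.14 with 4EGI-1 and 12.39, 12.25 and 12.29 without it, a separation without overlap that missed the threshold (-0.16 ± 0.06, adjusted p = 0.121). Among bright genes alone its adjusted p was 0.0444.

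Of the 6 genes that carry purine synthesis from PRPP to inosine monophosphate (IMP), 3 rose, 0 fell and 3 did not pass, with a median log2 difference of 0.14. Over all genes 11.5% rose, and in the separate fit of bright genes 21.2%. Pfas encodes the glutamine-dependent synthetase in the middle of the route. Its log2 signal was 8.07, 8.06 and 8.12 with 4EGI-1, against 7.26, 7.36 and 7.47 in untreated samples. The groups were far apart, with a difference of 0.72 ± 0.07 (SE; adjusted p = 0.000273), or 1.65 times the untreated level.

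Gart, a trifunctional enzyme of the same route, showed 10.09, 10.11 and 10.21 with 4EGI-1 and 9.85, 9.73 and 9.80 without it. It rose by 0.34 ± 0.07 (SE; adjusted p = 0.00677). Son, a splicing-factor gene that lies within 1 kb of Gart, moved alike (0.41 ± 0.07), and the array values do not separate transcripts that overlap. Atic, the bifunctional enzyme of the last steps to IMP, had log2 signals of 11.39, 11.36 and 11.45 with 4EGI-1 and 11.19, 11.13 and 11.20 without it. This small rise (0.22 ± 0.06, adjusted p = 0.0282) lost its call with the replicate number as a block (adjusted p = 0.0510) and without each of 5 of the 6 arrays in turn. Its adjusted p was 0.0647, 0.0912 and 0.0648 without untreated replicates 1, 2 and 3, and 0.0643 and 0.0948 without 4EGI-1 replicates 1 and 3.

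The other 3 enzymes of this route showed little difference. Ppat, the amidotransferase of the committed step, was at -0.10 (95% interval -0.25 to 0.04). Paics, a bifunctional enzyme, was at -0.01 (-0.16 to 0.14) and Adsl, the adenylosuccinate lyase that acts here and in AMP synthesis, at 0.06 (-0.10 to 0.22). Paics and Ppat lie within 1 kb of each other. Pfas, Gart and Atic thus passed and Ppat, which opens the route, did not, and the difference between them was not tested.

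IMP is then turned into AMP or GMP. On the GMP branch Gmps, the GMP synthetase, had log2 signals of 11.90, 11.85 and 11.81 with 4EGI-1 and 11.52, 11.46 and 11.56 without it. It rose by 0.34 ± 0.06 (SE; adjusted p = 0.00482), and Slc33a1, a gene within 1 kb of it, rose by 0.42 ± 0.06. Impdh1, an isoform of the enzyme that precedes Gmps, went the other way without passing. Its values were 7.55, 7.68 and 7.62 with 4EGI-1, all below the 7.87, 7.99 and 7.74 of untreated samples (-0.25 ± 0.08, adjusted p = 0.0552; 0.0143 among bright genes alone). On the AMP branch Adss, the adenylosuccinate synthase, differed by 0.06 ± 0.06 (adjusted p = 0.529), although its groups did not overlap.

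**Figure D2:**
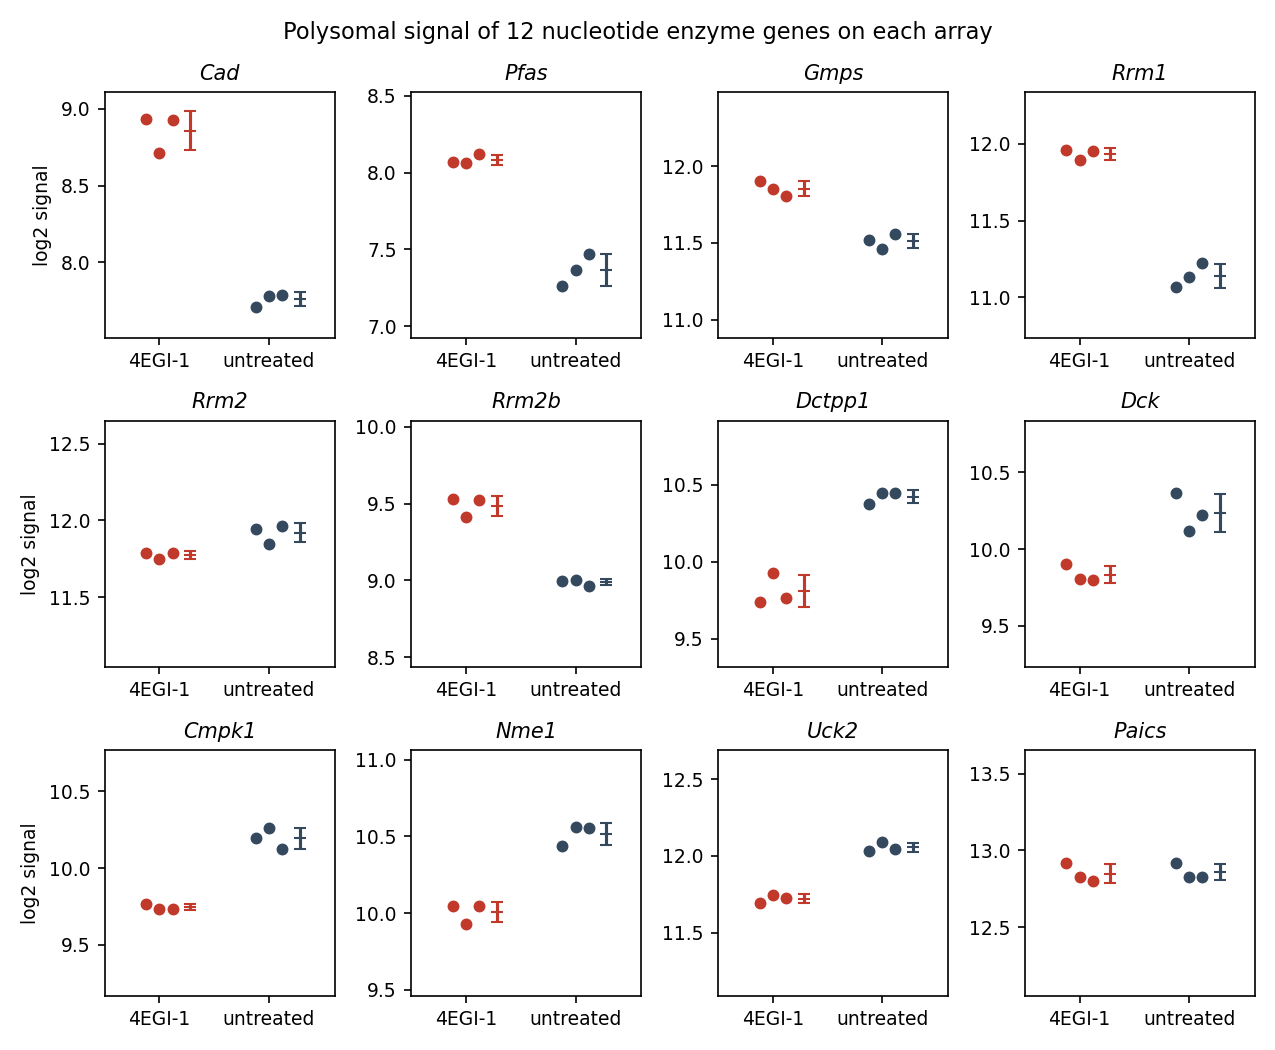
Log2 signal on each array (points) for 12 members, 4EGI-1 at the left and untreated at the right of each panel, with the group mean and SD (bars; n = 3 each). Each panel spans the same range of 1.6 log2 units around its own centre, so heights of the gaps can be compared between genes and levels cannot. Cad, Pfas, Gmps, Rrm1 and Rrm2b lie higher with 4EGI-1, Dctpp1, Dck, Cmpk1, Nme1 and Uck2 lie lower, and Paics overlaps.

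Genes of the dNTP supply went both ways: 2 of 8 rose, 3 fell and 3 did not pass. Over all genes 11.5% rose and 11.5% fell, and in the separate fit of bright genes 21.2% and 25.4%. Ribonucleotide reductase pairs a large catalytic subunit, Rrm1, with a radical-bearing small subunit, either Rrm2, the S-phase form, or Rrm2b, the p53-inducible form. Rrm1 had log2 signals of 11.96, 11.89 and 11.95 with 4EGI-1, against 11.07, 11.13 and 11.22 in untreated samples. This is a rise of 0.80 ± 0.07 (SE; adjusted p = 0.000136), or 1.74 times the untreated level.

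Of the small subunits, Rrm2b passed and Rrm2 did not. Rrm2b had 9.53, 9.41 and 9.52 with 4EGI-1 and 8.998, 9.005 and 8.964 without it, and rose by 0.50 ± 0.06 (SE; adjusted p = 0.000812). Rrm2 had 11.79, 11.75 and 11.79 with 4EGI-1 and 11.95, 11.85 and 11.96 without it. The treated values of Rrm2 were all slightly lower, yet it did not pass (-0.14 ± 0.06, adjusted p = 0.143; 0.0126 with a trended robust prior).

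Within each array, the ratio of Rrm1 to Rrm2 shifted by 0.94 on the log2 scale between the groups and that of Rrm2b to Rrm2 by 0.64, each without overlap. With 3 against 3 arrays an exact two-sided permutation test cannot go below 0.10, and it gave p = 0.10 for both (0.129 adjusted over 9 pairs). These p-values therefore cannot pass the threshold in this design, whatever the size of the shift. How often ratios of other gene pairs separate without overlap was not counted.

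Dctpp1, Dctd and Dut, which act on pyrimidine deoxynucleotides, fell. Dctpp1, which degrades dCTP and its modified forms, had log2 signals of 9.74, 9.93 and 9.77 with 4EGI-1, against 10.38, 10.45 and 10.45 in untreated samples. It showed the largest decrease among the members, -0.61 ± 0.07 (SE; adjusted p = 0.000592), or 0.654 times the untreated level. Dctd, the deaminase that makes dUMP from dCMP, had 10.58, 10.57 and 10.53 with 4EGI-1 and 10.93, 10.98 and 10.92 without it.

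Dctd thus fell by 0.38 ± 0.06 (SE; adjusted p = 0.00204). Dut, which hydrolyses dUTP to dUMP and keeps uracil out of DNA, had 10.23, 10.24 and 10.24 with 4EGI-1 and 10.57, 10.55 and 10.58 without it. This gap of -0.33 ± 0.06 (adjusted p = 0.00341) was many times the spread between arrays. Tyms, the thymidylate synthase that uses dUMP, did not pass (-0.03, 95% interval -0.17 to 0.10). Samhd1, a dNTP hydrolase, had a low log2 signal of 5.36 to 5.43 with 4EGI-1 and 5.22 to 5.39 without it, and did not pass (adjusted p = 0.271).

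Among the 7 salvage genes 0 rose, 4 fell and 3 did not pass, with a median log2 difference of -0.23. Beside them, 11.5% of all genes fell in the same fit, and 25.4% of bright genes in their separate fit. Dck, which phosphorylates deoxycytidine and activates several leukaemia drugs, had log2 signals of 9.90, 9.80 and 9.80 with 4EGI-1 and 10.37, 10.12 and 10.22 without it. It fell by 0.40 ± 0.08 (SE; adjusted p = 0.00706). Uck2, the uridine-cytidine kinase, had 11.69, 11.75 and 11.72 with 4EGI-1 and 12.03, 12.09 and 12.05 without it.

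The fall of Uck2 was 0.34 ± 0.06 (SE; adjusted p = 0.00383), and its other, dimmer probe set went the same way by -0.55. Aprt, which salvages adenine, had 8.97, 9.04 and 9.08 with 4EGI-1 and 9.39, 9.44 and 9.28 without it, and fell by 0.34 ± 0.07 (adjusted p = 0.00852). Tk1, the cytosolic thymidine kinase of S phase, fell by 0.23 ± 0.06 (adjusted p = 0.0210). Its dimmer probe set differed by -0.27. In a limma fit over all probe sets the dimmer one did not pass (adjusted p = 0.0538) and the brighter one did (0.0383). The call for Tk1 ended without untreated replicate 1 (adjusted p = 0.0601) or 3 (0.0716) and without 4EGI-1 replicate 1 (0.0532) or 2 (0.0627).

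Hprt, which salvages hypoxanthine and guanine, had 12.19, 12.10 and 12.07 with 4EGI-1 and 12.37, 12.22 and 12.31 without it. The groups did not overlap but the test was not passed (-0.18 ± 0.07, adjusted p = 0.101; 0.0341 among bright genes alone). The mitochondrial salvage kinases did not pass. Tk2 had 6.27, 6.38 and 6.66 with 4EGI-1 and 6.03, 6.11 and 6.19 without it (0.33 ± 0.10, adjusted p = 0.0570; 0.0259 with a trended robust prior). Dguok, the deoxyguanosine kinase, differed by -0.03 ± 0.07.

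Of the 6 kinases that phosphorylate nucleotides, 0 rose, 4 fell and 2 did not pass. Their median log2 difference of -0.35 was the lowest of the 7 role groups. Over all genes 11.5% fell, and in the separate fit of bright genes 25.4%. Nme1 and Nme2 encode the main cytosolic nucleoside diphosphate kinases, which make triphosphates. Nme1 had log2 signals of 10.05, 9.93 and 10.04 with 4EGI-1 and 10.43, 10.56 and 10.55 without it. Nme2 had 10.86, 11.01 and 10.86 with 4EGI-1 and 11.39, 11.25 and 11.40 without it.

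Nme1 thus fell by 0.51 ± 0.07 (SE; adjusted p = 0.00112) and Nme2 by 0.44 ± 0.07 (adjusted p = 0.00350). These neighbouring genes are close paralogs, and probes could be shared between their transcripts. Nme4, the mitochondrial member of the family, differed by -0.07 ± 0.07 at a log2 signal of 6.71 with 4EGI-1 and 6.78 in untreated cells.

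Cmpk1, the UMP-CMP kinase, had 9.77, 9.73 and 9.73 with 4EGI-1 and 10.19, 10.26 and 10.13 without it. It fell by 0.45 ± 0.06 (SE; adjusted p = 0.00137). Dtymk, the thymidylate kinase, had 10.63, 10.71 and 10.59 with 4EGI-1 and 10.90, 10.91 and 10.90 without it. Its fall of 0.26 ± 0.06 (adjusted p = 0.0159) did not pass without untreated replicate 3 (0.0523) or 4EGI-1 replicate 3 (0.0596). Guk1, the guanylate kinase, differed by 0.12 ± 0.08 (adjusted p = 0.360).

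Of the 4 members that act solely in mitochondria (Dhodh, Tk2, Dguok and Nme4), 0 passed in this limma fit, where 22.9% of all genes passed. Their differences ran from -0.07 to 0.33, and 1 of the 4, Tk2, had an unadjusted p under 0.05 (0.0136) and passed in 6 alternatives. Mitochondrial enzyme genes of the related lists below passed in both directions, such as Mthfd1l (0.96) and Ak4 (-1.14). Others there, such as Shmt2 and Mthfd2, did not pass. The 0 of 4 therefore does not set mitochondrial enzymes apart. Tk2 and Nme4 lay near the table's median of 6.41 and had no detection call, so whether they were detected, and what their ratios below measure, is not known. For related enzymes in different compartments, within-array ratios shifted between the groups. The ratio of Tk1 to Tk2 moved by -0.56 and that of Dck to Dguok by -0.37, while the ratio of Nme4 to Nme1 moved by 0.44. Each of these 3 shifts was without overlap (exact permutation p = 0.10, the smallest this design allows; 0.129 adjusted over 9 pairs). How often ratios of other gene pairs separate was not counted. Single genes separated in 17.0% (higher) and 20.8% (lower) of cases, and a ratio can separate when only a single gene of the pair moved. The ratio of Nme1 to Nme2 moved by -0.07 with overlapping groups (exact p = 0.70). Smaller shifts without overlap were seen for Ctps over Ctps2 (0.15) and Paics over Ppat (0.09), and the groups overlapped for Prps1 over Prps2 (0.11, exact p = 0.20).

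**Figure D3:**
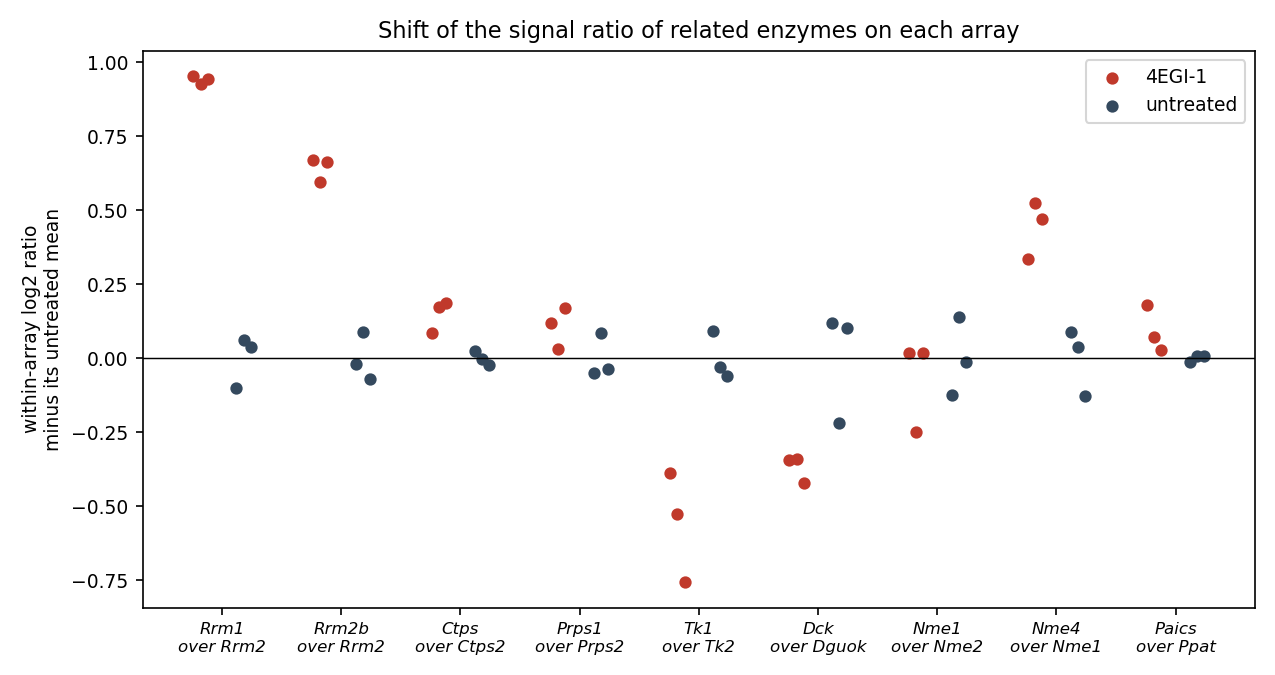
Within-array log2 ratio of the signals of 9 pairs of related enzymes, each minus its mean over the untreated arrays (points are arrays; 4EGI-1 in red at the left, untreated in dark blue at the right of each pair; n = 3 each). The ratio of Rrm1 to Rrm2 sits about 0.94 above its untreated mean on the treated arrays, and that of Tk1 to Tk2 sits 0.56 below.

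Genes next to these routes were read from 4 further lists. Folate enzymes supply the carbon units used by Gart, Atic and Tyms. Of 19 measured folate genes, 4 rose, 1 fell and 14 did not pass, with a median log2 difference of -0.01. Over all genes, 11.5% rose and 11.5% fell, and these shares stand beside each list below. In the separate fit of bright genes 21.2% rose and 25.4% fell, but several genes of these lists were dimmer than the table's median. The largest rise was in Mthfd1, the trifunctional cytosolic enzyme that makes the formyl donor of purine synthesis. It had 9.98, 9.87 and 10.01 with 4EGI-1 and 8.72, 8.84 and 8.90 without it, a difference of 1.13 ± 0.07 (SE; adjusted p = 6.65e-05), about the size of that of Cad.

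Its mitochondrial relative Mthfd1l rose by 0.96 ± 0.07 and the methionine synthase Mtr by 0.94 ± 0.06. The remaining gene that rose, named after its value was seen, was Aldh1l2, a mitochondrial formyltetrahydrofolate dehydrogenase (0.56 ± 0.10, adjusted p = 0.00481), at a low log2 signal of 6.18 with 4EGI-1 and 5.62 in untreated cells. The mitochondrial enzymes Shmt2 and Mthfd2 did not pass: Shmt2 differed by 0.19 ± 0.07 (adjusted p = 0.0723) and Mthfd2 by -0.08 ± 0.06 (adjusted p = 0.365). Gcsh, the hydrogen carrier of the glycine cleavage system, fell by 0.59 ± 0.08.

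Further salvage genes and kinases gave 3 increases, 6 decreases and 14 genes that did not pass among 23 measured, with a median of -0.08. Ak4, a mitochondrial adenylate kinase, fell by 1.14 ± 0.12 (SE; adjusted p = 0.000405), a larger fall than that of any of the 37 members. Ak4 has 2 probe sets, and this value is of the brighter one alone. Pnp, the purine nucleoside phosphorylase whose loss harms T cells, fell by 0.44 ± 0.07, and the kinase family member Nme7 by 0.47 ± 0.08. The AMP deaminase gene Ampd1 rose by 0.88 ± 0.07, at a low log2 signal of 6.47 with 4EGI-1 and 5.59 in untreated cells. Ampd2 and Uckl1 rose by 0.33 ± 0.07 and 0.25 ± 0.07. Ada, the adenosine deaminase, differed by -0.12 ± 0.06 (adjusted p = 0.240).

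Among genes of nucleotide breakdown and pool cleaning, 1 of 23 rose, 8 fell and 14 did not pass, with a median of -0.06. Beside them, 11.5% of all genes fell in the same fit. The 25.4% of bright genes that fell are from a separate fit, and several genes of this list, such as Uox and Dpyd, were dimmer. Entpd4, a nucleoside diphosphatase, fell by 0.56 ± 0.07 (SE), the nucleotidase Nt5c by 0.47 ± 0.07 and Nudt1, which removes oxidised purine triphosphates, by 0.42 ± 0.07. The ectonucleotidase gene Nt5e, at a low log2 signal of 6.15 with 4EGI-1 and 5.82 without it, rose by 0.33 ± 0.07. Of 9 transport genes 0 rose, 1 fell and 8 did not pass. Slc25a36, a mitochondrial pyrimidine nucleotide carrier, fell by 0.29 ± 0.06 in the brighter of its 2 probe sets. The nucleoside transporter Slc29a1 differed by -0.02 ± 0.08.

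**Figure D4:**
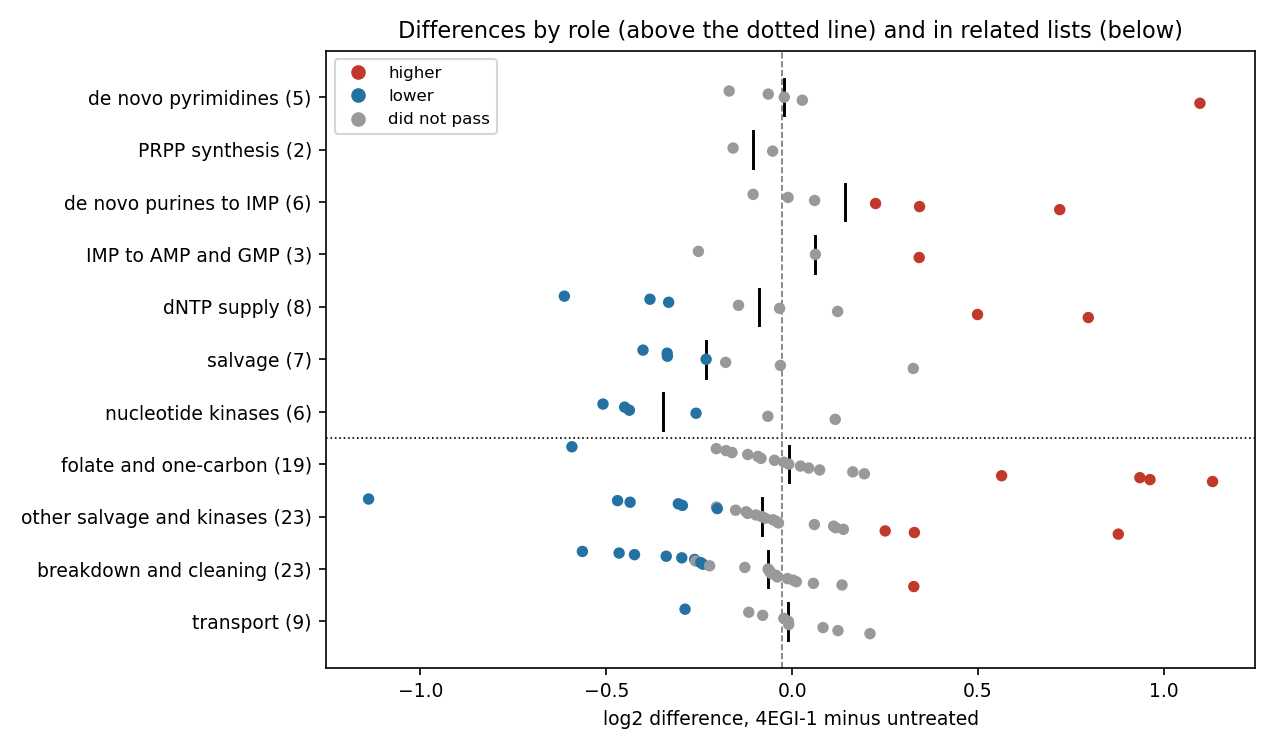
Log2 differences, 4EGI-1 minus untreated, of the members by role (above the dotted line) and of the related lists (below it), with the number measured in parentheses. Points are genes, spread vertically for legibility and coloured by call (red higher, blue lower, grey not passed); black ticks are medians and the dashed line is the median of all genes at -0.03. The salvage and kinase rows have medians of -0.23 and -0.35, and the folate row holds 4 genes that rose beside a median of -0.01.

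The promoters were searched for CACGTG, the E-box that Myc and Max bind, because several nucleotide enzymes are known Myc targets and members with the same letters can be set side by side. Windows ran from 250 bases before to 50 after each annotated start (RefSeq, GRCm38.p6), and 35 of the 38 listed genes had at least 1. Dhodh, Pfas and Rrm2b had none. The motif reads alike on both strands. It was found in 6 of the 35 genes (17.1%), which were Atic, Dtymk, Impdh2, Nme1, Paics and Tyms, and in 9.50% of 15614 genes with a window. Sequences with the motif in capitals are shown for a gene that rose (Atic), 2 that fell (Dtymk and Nme1) and 1 that did not pass (Tyms). They hold up to 40 bases on each side of the motif and go no further than the annotated start. Those of Atic and Nme1 reach the start, and those of Dtymk and Tyms end before it.
Atic, chr1:71557109-71557155, plus strand: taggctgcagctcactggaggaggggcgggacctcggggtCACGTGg
Dtymk, chr1:93802037-93802122, minus strand: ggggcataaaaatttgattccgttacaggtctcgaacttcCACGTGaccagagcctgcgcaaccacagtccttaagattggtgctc
Nme1, chr11:93968273-93968330, minus strand: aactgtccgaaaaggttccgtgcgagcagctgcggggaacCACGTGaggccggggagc
Tyms, chr5:30073641-30073726, minus strand: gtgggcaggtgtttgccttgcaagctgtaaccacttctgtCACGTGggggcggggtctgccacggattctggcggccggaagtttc
Counted from the start, the motif begins at position -7 in Atic, -148 in Dtymk, -18 in Nme1 and -61 in Tyms. Another annotated start of Nme1 has its own copy of the motif at -29. Genes that hold these letters were thus found among those that rose, those that fell and those that did not pass. Among those that rose it was Atic alone, whose call was lost in several alternatives. Pfas and Rrm2b, which also rose, could not be searched.

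E2F factors drive many S-phase genes, and their motif was searched on both strands as TTTCCCGC, TTTCGCGC, TTTGCCGC or TTTGGCGC. It was found in 2 of the 35 genes (5.71%), Ppat and Prps2, neither of which passed the test, and in 3.48% of all genes with a window. A start with C followed by 4 pyrimidines, the mark of terminal oligopyrimidine mRNAs, was found at the annotated start of 1 member, Guk1 (2.86%), and in 2.75% of all genes. Annotated starts can differ from those used in these cells, so these are descriptions of letters and not of sites.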

How the data were processed

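Polysomal RNA of 3 samples treated with 4EGI-1 and 3 untreated samples was measured on 1 array each. Per the labels' protocols, whole-transcript amplification was followed by fragmentation and biotin labelling of the cDNA. Each probe set has a deposited log2 signal, made by the authors with RMA per the submitters' processing notes. Its version, the slides and the scan dates are not given here. RMA makes values relative within an array.

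Of 34760 probe sets, 21640 had 1 gene symbol in the platform annotation. Of these, 21553 were matched by Entrez identifier to a RefSeq table, which gave the symbol used. Several-symbol probe sets (1321) named more than 1 gene and unlisted ones (11799) named none, and both were left out. The probe set with the highest mean represented each of 19937 genes. Differences (4EGI-1 minus untreated) were fitted with limma 3.58.1 (lmFit, eBayes; R 4.3.3), two-sided, without a filter, with Benjamini-Hochberg adjustment over all genes and a threshold of 0.05. The number of arrays limits the precision, and the median SE was 0.0781. Related genes were compared by within-array ratios and exact permutation tests. The design text calls the samples biological replicates. On simulated data the fit recovered 1.5% of log2 changes of 0.25, 59.7% of 0.5 and 87.9% of 1. Of the calls there 5.7% were false. The simulation changed 200 genes, where 4573 were called in these data, so its recovery need not hold here.

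The members and lists were chosen with earlier results of these data known. All members were to be named, and of each related list up to 3 that passed in each direction plus 7 set genes. Same-numbered samples were not taken as pairs (correlation of deviations -0.02 to 0.11). Alternatives were a replicate block, 2 filters on dim genes, the mean of probe sets, quantile normalization, median centring, array weights, a robust prior with trend, omission of each sample in turn and a threshold of 0.01.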

Additional observations from a re-analysis of the deposited data

How the results depend on the processing

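The counts of members that rose and fell stayed at 6 to 8 and 9 to 15 under all alternatives run, and no member that passed changed direction. With the replicate number as a block, 7 members rose and 11 fell, but Atic no longer passed (adjusted p = 0.0510) and Tk2 did (0.0306); over all genes 2097 rose and 1974 fell. The numbers are not known to pair the samples, and 4 of 6 samples correlated best with the sample of their own number. At an adjusted p under 0.01, 1488 genes rose and 1248 fell over the table, and 6 members rose and 9 fell. Leaving out 1 sample at a time gave 6 to 7 members higher and 10 to 11 lower. Differences near 0 changed sign in it: they ran from -0.0139 to 0.0823 for Dhodh, -0.0594 to 0.0411 for Ctps, -0.0468 to 0.0194 for Paics and -0.0893 to 0.0203 for Dguok, and the ratio of Nme1 to Nme2 from -0.134 to 0.0179. Quantile normalization put Paics at 0.0328. Of the values that just missed, Impdh1 passed in 5 alternatives and Tk2 in 6; with a trended robust prior 15 members fell, among them Prps2, Hprt, Rrm2 and Impdh1. The cause of these changes was not tested. No detection calls were used, so whether the dimmest members (Samhd1, Tk2 and Nme4) were detected is not known. Impdh1 against Impdh2 was not run, since Impdh2 had no probe set of its own.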
